A study of Citrus sinensis with 6 samples.

Results

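The deposited expression table of sweet orange (Citrus sinensis) leaves lists 14 CsBBX genes, and 8 of them, CsBBX1, CsBBX2, CsBBX3, CsBBX4, CsBBX7, CsBBX9, CsBBX10 and CsBBX12, are described here. They were chosen from a readout: each passed the filter on low values, and its FPKM values in boron-deficient leaves and in control leaves overlapped. FPKM is the number of fragments scaled to the length of the gene and to the mapped fragments of the library. Levels of genes of different length can then be set side by side, as far as the lengths used are right. The table holds 29875 genes, of which 16421 had at least 1 FPKM in at least 3 libraries and were tested, and all 8 genes were among these. The choice took in the 8 listed genes only. The values of CsBBX5 and CsBBX11 also overlapped between the groups, those of CsBBX6, CsBBX13 and CsBBX14 did not, and CsBBX8, with 0 to 2 reads per library, was not tested.

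The boron-deficient group (T) and the control group (CK) had 3 libraries each, all from tissue-cultured Bingtang sweet orange plants on MS nutrients, harvested on day 25. The boron supply was 0.01 mg/L in T and 0.25 mg/L in CK by the design text of the series. The methods of the study give these amounts as boric acid, and the treatment field of the sample labels gives 0.01 mg/L throughout. Titles name the organ as leaf in T and as leaf blades in CK, so the part sampled and the boron supply cannot be told apart. The libraries of a group are called biological replicates, without a statement that each came from a different plant, and no batch is named.

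The B-box is a small fold held together by zinc, and plant BBX proteins use it to pair with partner proteins when they regulate transcription. Part of the family has a further CCT domain, named after CONSTANS and related proteins, which takes part in contact with DNA. In Arabidopsis the family includes CONSTANS, which links day length to flowering, and members that act with or against the light-response regulator HY5 in seedlings. Family members are also known there for roles in the circadian clock, shade avoidance and the control of flavonoid pigments. Boron is an essential nutrient of plants that crosslinks pectin in the cell wall.

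Reads were recovered as whole numbers from the FPKM steps in all 22740 genes above 0, and the libraries held 17689448 to 24026468 reads in genes. A read in a gene of 1 kb was worth 0.0414 to 0.0563 FPKM. The sum over 17 antenna protein genes, which mark leaf mesophyll, was 9884 to 20170 FPKM in T and 15370 to 19640 FPKM in CK, and 2 of the 17 were at 0 everywhere. All 15 tested antenna genes had lower mean log2 values in T (median -0.53). The low sums were those of T replicates 1 and 3, at 9884 and 9934 FPKM, while T replicate 2 had the highest of the 6 libraries. The 15 genes share these libraries and are not separate replicates. The sum over 50 photosynthesis genes was 12590 to 16500 FPKM in T and 16120 to 20480 FPKM in CK, with 7 of the 50 at 0 everywhere. The sum over 36 genes annotated to xylem development, 3 of them at 0, was 351.8 to 433.0 FPKM in T and 210.2 to 365.8 FPKM in CK, while 9 of the 25 tested had a log2 fold change above 0 and 16 below it (median -0.15). Whether these marker levels have a part in the values of the CsBBX genes was not tested, and in bulk leaf RNA fewer cells of a type and less RNA per cell cannot be told apart.

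The 8 genes fall into 3 classes by the domains found in their proteins. CsBBX1, CsBBX4 and CsBBX9 have 2 B-boxes and no CCT domain, and their proteins are 213, 311 and 288 residues long. CsBBX3, CsBBX7 and CsBBX12 have 2 B-boxes and a CCT domain, at 383, 387 and 675 residues. CsBBX2 and CsBBX10 have 1 B-box and a CCT domain, at 461 and 403 residues. These were each other's closest relatives among the 8, with 53.6% of the residues of the shorter protein identical. The protein of CsBBX12 runs for 220 residues past its CCT domain, where the other CsBBX proteins with this domain run for 22 to 53, and holds 3 matches to a leucine-rich repeat pattern that the other 13 proteins lack. Reads of a neighbouring gene joined to this gene model could not be told apart from reads of CsBBX12.

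The most abundant of the 8 genes was CsBBX9 (Cs_ont_5g034100), from the class with 2 B-boxes and no CCT domain. It stood at 59.5, 83.4 and 81.1 FPKM in T, against 105, 85.9 and 83.2 FPKM in CK. The groups nearly parted, and the CK value of 83.2 FPKM lay just under the T value of 83.4 FPKM. Its mean was 74.7 ± 13.2 FPKM in T and 91.5 ± 12.0 FPKM in CK (SD, n = 3 each), a log2 fold change of -0.30 ± 0.20 (SE). Fold changes are T over CK on the scale of log2(FPKM + 1), which understates changes of low genes, and they carry no test for these 8 genes because the overlap of T and CK chose them.

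CsBBX4 (Cs_ont_3g002820), of the same class, carries the GO terms photomorphogenesis and shade avoidance. It had 6.89, 5.996 and 19.5 FPKM in T, against 10.7, 7.52 and 10.3 FPKM in CK. T replicate 3 was the highest library and the other T libraries the lowest of the 6, so that the T values enclosed those of CK. The log2 fold change was 0.00 ± 0.43 (SE), and the SD within T was 7.57 FPKM, against 1.73 FPKM within CK.

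CsBBX1 (Cs_ont_1g027600) was the least abundant of the 8 genes and had the smallest protein. Its values were 4.10, 4.59 and 1.54 FPKM in T, against 2.30, 2.82 and 2.20 FPKM in CK. Here T replicate 3 was the lowest of the 6 libraries and the other T libraries were the highest, the opposite arrangement to CsBBX4. The mean was 3.41 ± 1.63 FPKM in T and 2.44 ± 0.333 FPKM in CK (SD, n = 3 each), a log2 fold change of 0.28 ± 0.34 (SE).

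Among the genes with 2 B-boxes and a CCT domain, the domain set of CONSTANS, CsBBX12 (Cs_ont_7g027510) was the most abundant. It reached 11.8, 12.8 and 18.6 FPKM in T, against 12.7, 6.54 and 15.5 FPKM in CK, with a log2 fold change of 0.34 ± 0.33 (SE). T replicate 3 was the highest library and CK replicate 2 the lowest, and the other 4 libraries lay between them with the groups intermixed.

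CsBBX7 (Cs_ont_5g008940) had 6.74, 4.80 and 6.89 FPKM in T, against 5.80, 2.92 and 4.53 FPKM in CK. T was above CK in 8 of the 9 possible pairs of a T and a CK library, and the exception set T replicate 2 against CK replicate 1. The mean was 6.14 ± 1.17 FPKM in T and 4.42 ± 1.44 FPKM in CK (SD, n = 3 each), and the log2 fold change was 0.42 ± 0.27 (SE).

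CsBBX3 (Cs_ont_2g025070) stood at 3.38, 5.38 and 3.31 FPKM in T, against 3.76, 5.19 and 1.79 FPKM in CK. The groups were intermixed, with replicate 2 the highest library of each group. The log2 fold change was 0.18 ± 0.35 (SE).

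Of the 8 genes, those with 1 B-box and a CCT domain had the widest swings between libraries. Outside the 8, the highest library of CsBBX11 and CsBBX14 held 10.5 and 7.02 times the level of the lowest. CsBBX2 (Cs_ont_2g011150) had 45.1, 23.9 and 75.3 FPKM in T, against 38.7, 12.3 and 42.1 FPKM in CK. The highest library, T replicate 3, held 6.10 times the level of the lowest, CK replicate 2. The mean was 48.1 ± 25.8 FPKM in T and 31.1 ± 16.3 FPKM in CK (SD, n = 3 each), with a log2 fold change of 0.65 ± 0.58 (SE).

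CsBBX10 (Cs_ont_5g036800), which like CsBBX4 is among the 11 genes of the table annotated to shade avoidance, had 11.9, 12.8 and 28.7 FPKM in T, against 14.5, 29.2 and 47.5 FPKM in CK. T replicate 3 lay above CK replicate 1, and T was above CK in 1 of 9 pairs. The mean was 17.8 ± 9.45 FPKM in T and 30.4 ± 16.5 FPKM in CK (SD, n = 3 each), a log2 fold change of -0.70 ± 0.50 (SE), the largest in size of the 8 genes.

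**Figure D1:**
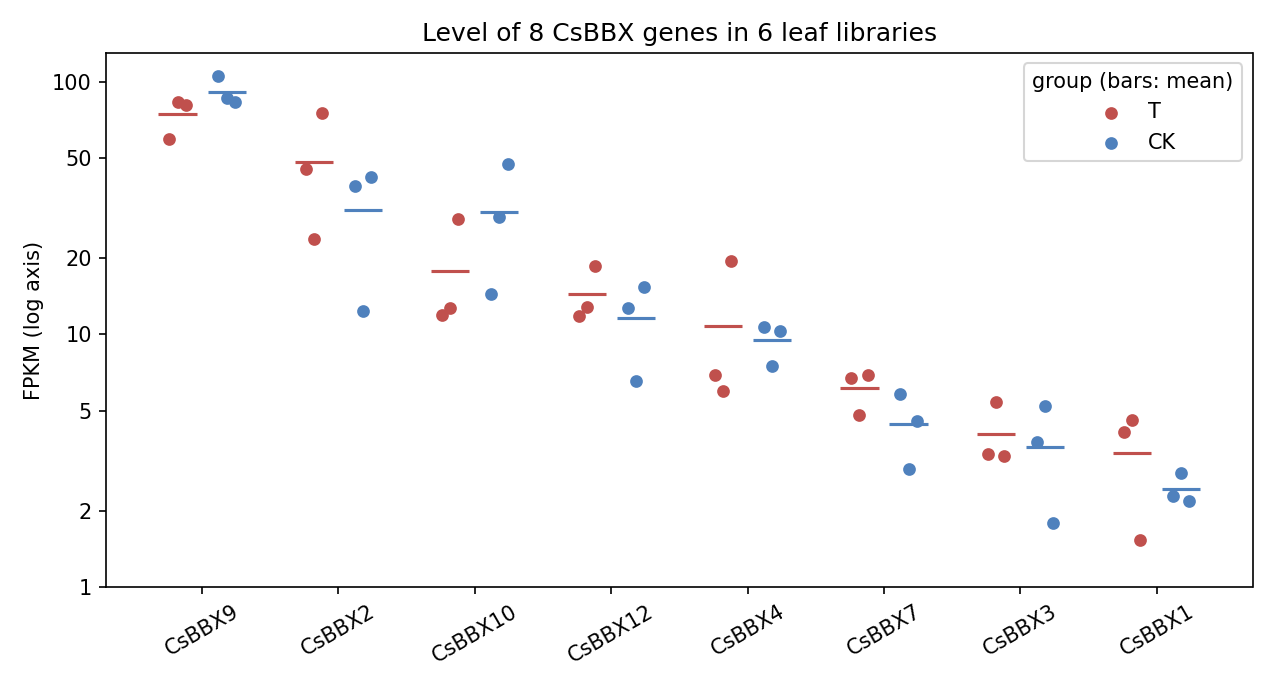
FPKM (log axis) of the 8 CsBBX genes in each library, with the 3 T libraries left of the 3 CK libraries for every gene and a bar at each group mean. T and CK points overlap in each gene, and CsBBX9 lies highest, between 59.5 and 105 FPKM.

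The groups overlapped in each of the 8 genes, as the choice requires, while T and CK did not overlap in 8.17% of all tested genes. The criterion of the study asks for a change of 2-fold or more at an unadjusted p no higher than 0.05. In the limma fit 0 of the 8 genes met it, beside 387 of the 16421 tested genes, or 2.36%. An unadjusted p under 0.05 was reached by 0 of the 8, beside 4.78% of tested genes. Nothing is read from these counts, since the same contrast chose the genes. The log2 fold change was above 0 in 6 of the 8 genes and below 0 in CsBBX9 and CsBBX10. Its median was 0.23, against 0.02 over all tested genes.

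At the edge of the choice, CsBBX7, CsBBX9 and CsBBX10 were inside by 1 of 9 library pairs. CsBBX6, CsBBX13 and CsBBX14 lay outside. CsBBX6 had 53.1, 55.9 and 67.1 FPKM in T, against 83.1, 111 and 86.5 FPKM in CK. CsBBX13 had 12.6, 11.5 and 17.6 FPKM in T, against 20.1, 37.0 and 35.1 FPKM in CK. CsBBX14 had 9.73, 14.6 and 8.74 FPKM in T, against 2.08, 5.53 and 6.79 FPKM in CK.

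The choice also turned on single libraries. Without T replicate 2 the groups no longer overlapped in CsBBX2, CsBBX7 and CsBBX9, where 16.9% of all tested genes did not overlap either. Without T replicate 3 the same held for CsBBX1, CsBBX4 and CsBBX10, beside 24.7% of tested genes. Without CK replicate 1 it held for CsBBX7 and CsBBX10, beside 22.8%, and without CK replicate 3 for CsBBX9, beside 22.4%. Leaving out T replicate 1 or CK replicate 2 separated 0 of the 8 genes, beside 11.1% and 12.0%. CsBBX3 and CsBBX12 overlapped whichever library was left out. Without CK replicate 1 the fold change of CsBBX10 also met the criterion of the study, with a log2 value of -1.14, beside 4.53% of tested genes in that setting, and nothing is read from it.

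**Figure D2:**
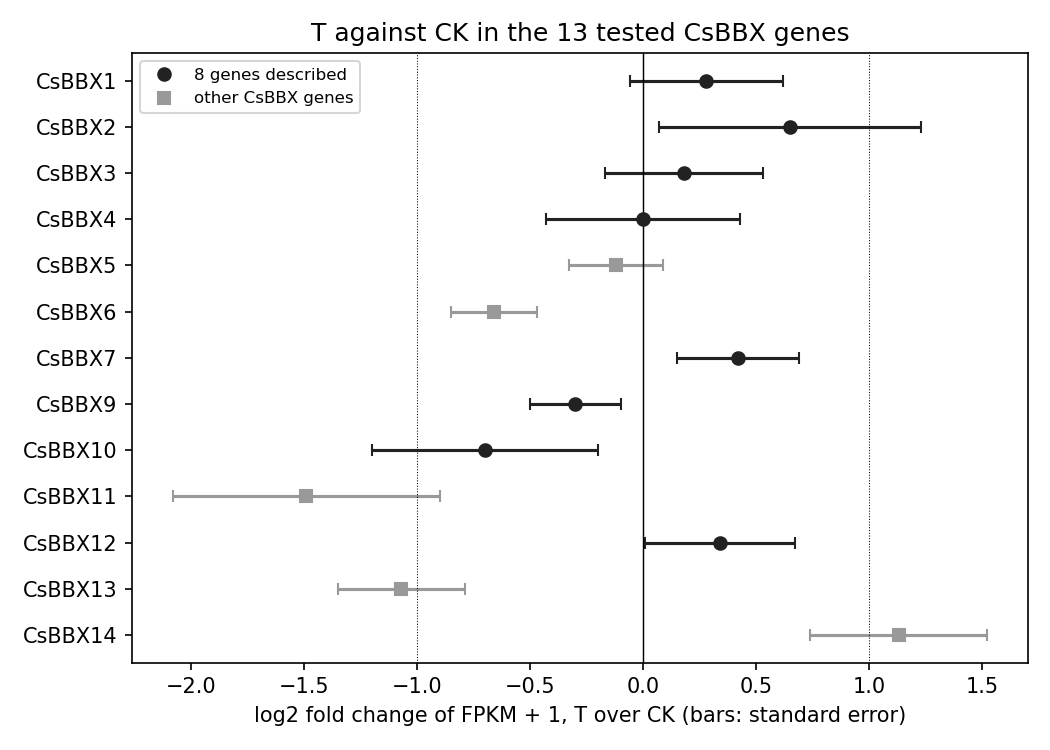
Log2 fold change of FPKM + 1, T over CK, with its standard error, for the 13 tested CsBBX genes (black circles for the 8 genes described, grey squares for the rest, dotted lines at a fold change of 2). CsBBX10 at -0.70 and CsBBX2 at 0.65 lie farthest from 0 among the 8 genes and have the widest error bars of the 8.

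Levels entered the choice only through the filter on low values, which kept out CsBBX8 and so bounds the low end, and the levels of the 8 genes were tested against each other. Each pair was compared by an exact two-sided sign-flip permutation test of the log2 difference over the 6 libraries, with Benjamini-Hochberg adjustment over the 28 pairs, where the smallest p possible is 0.03125. The order, from high to low, was CsBBX9, CsBBX2, CsBBX10, CsBBX12, CsBBX4, CsBBX7, CsBBX3 and CsBBX1, and it was the same for the means of T and of CK. CsBBX9 stood at or above 93.2% of the tested genes by its mean FPKM, and CsBBX1 at or above 13.8%. In 23 of the 28 pairs 1 gene was higher in 6 of 6 libraries, with an adjusted p of 0.038 by the exact permutation test.

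Most neighbours in this order did not differ beyond their spread. CsBBX9 exceeded CsBBX2 by a mean ratio of 2.39 in 6 of 6 libraries, and CsBBX4 exceeded CsBBX7 by 1.84 in 6 of 6, both at an adjusted exact permutation p of 0.038. Levels rest on the length counted for each gene, 2098 bases for CsBBX4 and 4853 for CsBBX7. In reads, CsBBX4 had 257 to 871 per library and CsBBX7 had 276 to 710. For CsBBX9 and CsBBX12 the counted length was the coding length alone, unlike the rest of the 8. The permutation test does not measure errors in these lengths. CsBBX2 was above CsBBX10 in 4 of 6 libraries, with an adjusted exact permutation p of 0.25. CsBBX10 was above CsBBX12 in 5 of 6, with an adjusted exact permutation p of 0.0729. CsBBX12 was above CsBBX4, CsBBX7 above CsBBX3, and CsBBX3 above CsBBX1, each in 4 of 6 libraries, with adjusted exact permutation p-values of 0.175, 0.202 and 0.227.

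The 8 genes together made up 36.3%, 36.9% and 42.3% of the summed FPKM of the family in T, against 38.6%, 28.1% and 31.3% in CK. CsBBX9 alone held 34.5% to 56.4% of the sum of the 8. The share of the 8 genes was lowest in CK replicate 2, where CsBBX2, CsBBX7 and CsBBX12 had their lowest values. It was highest in T replicate 3, where CsBBX2, CsBBX4, CsBBX7 and CsBBX12 had their highest values, and the groups overlapped.

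Spread was taken as the pooled SD of log2(FPKM + 1) within groups. It was 0.88 for CsBBX2, 0.75 for CsBBX10 and 0.63 for CsBBX4, at or above 91.2%, 87.1% and 81.5% of tested genes. It was 0.48 for CsBBX12, 0.47 for CsBBX3, 0.45 for CsBBX1 and 0.33 for CsBBX7. CsBBX9 had the smallest, at 0.23, and was the only 1 of the 8 under the median of all tested genes, which was 0.31. Spread on this scale depends on level. Among tested genes within 2-fold of the own mean FPKM, CsBBX2, CsBBX10, CsBBX4 and CsBBX12 lay above 93.1%, 90.9%, 84.6% and 77.6%. There CsBBX3, CsBBX1, CsBBX7 and CsBBX9 lay above 60.2%, 54.1%, 48.9% and 33.0%. A wide spread makes overlap of the groups more likely, so these values bear on the choice and are given with no test. The lowest library of each gene held 73 reads for CsBBX1 and up to 917 for CsBBX9, whose counting error alone gives coefficients of variation of 11.7% and 3.30%. Over the 6 libraries the observed coefficient of variation was 40.4% for CsBBX1 and 17.5% for CsBBX9. It reached 57.6% for CsBBX10.

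**Figure D3:**
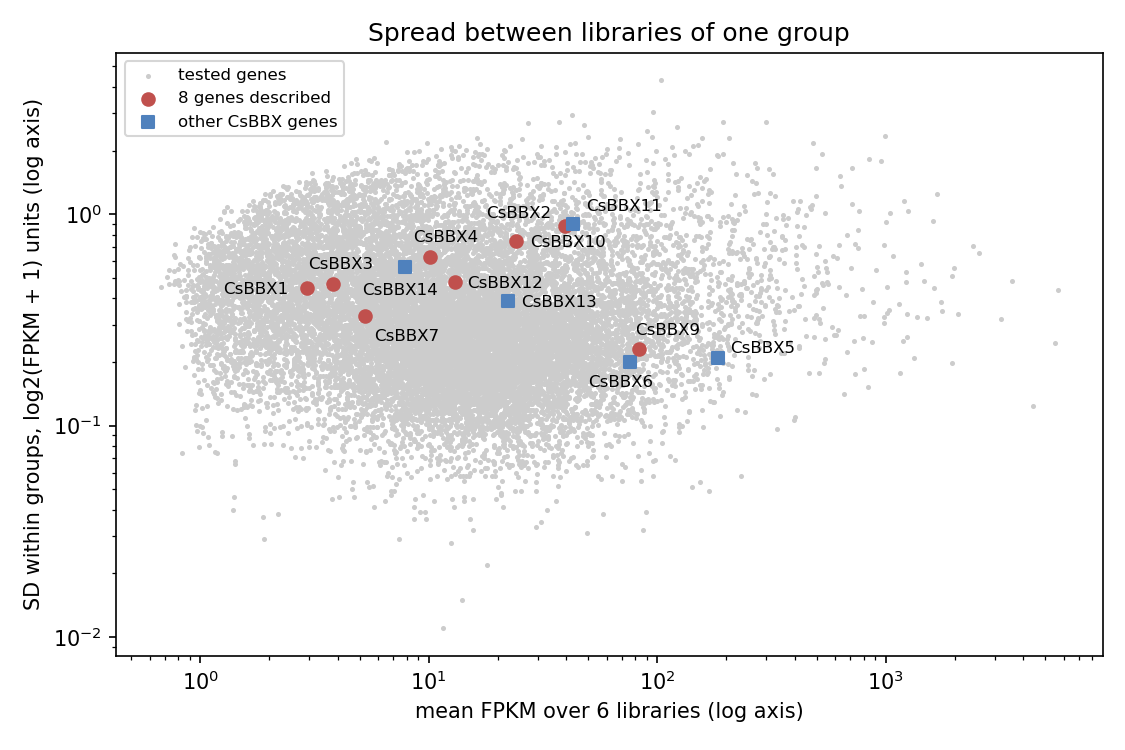
Pooled SD of log2(FPKM + 1) within groups against mean FPKM over 6 libraries (both axes log) for all 16421 tested genes in grey, the 8 genes in red and the other tested CsBBX genes in blue. CsBBX2 lies highest of the 8 at 0.88 and CsBBX9 lowest at 0.23.

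Covariation was measured over the 6 libraries. Over all genes, T replicates 1 and 3 and CK replicate 1 resembled each other most, with r of 0.940 to 0.958 across genes, and the first principal component, with 33.9% of the variance, set them against the other 3 libraries. T replicate 1 with T replicate 2 (0.937) and CK replicate 1 with CK replicate 2 (0.932) crossed this divide, so the libraries were not taken as separate clusters. CsBBX7 had its 3 highest values in T replicates 1 and 3 and CK replicate 1, and the part of this axis in the covariation was not tested. Of the 28 pairs of the 8 genes, 13 had a positive and 15 a negative Pearson correlation, with a median r of -0.08. In 3 pairs, or 10.7%, r was at least 0.8 in size, while 8.67% of all pairs of tested genes reached this. No pair passed adjustment over the 28 pairs by the exact permutation test, where the smallest adjusted p was 0.0778 for Pearson and 0.467 for Spearman, and 3 pairs had an unadjusted Pearson p under 0.05. The test has 720 pairings of the libraries. A lone pair could thus pass for Pearson only at the smallest p possible, and for Spearman not at all, so no lack of covariation is read from this.

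The highest correlation in size was the opposite pattern of CsBBX1 and CsBBX4, both with 2 B-boxes and no CCT domain. Pearson r was -0.93 (exact permutation p = 0.00278, adjusted p = 0.0778, n = 6 libraries) and Spearman rho -0.94 (exact permutation p = 0.0167, adjusted p = 0.467). Without T replicates 1 and 2, the libraries farthest from the median of CsBBX1, r was -0.99. Computed on the deviations from the mean of the own group, r was -0.996.

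CsBBX2 moved with CsBBX7 and with CsBBX12 across classes. With CsBBX7, r was 0.90 (exact permutation p = 0.0167, adjusted p = 0.233) and rho 0.83 (exact permutation p = 0.0583, adjusted p = 0.576). With CsBBX12, r was 0.90 (exact permutation p = 0.0278, adjusted p = 0.259) and rho 0.60 (exact permutation p = 0.242, adjusted p = 0.586). Without T replicate 3 and CK replicate 2, the highest and the lowest library of CsBBX2, r was 0.49 with CsBBX7 and 0.09 with CsBBX12, so both relations rest on those libraries, whose removal also narrows the range of CsBBX2. On the deviations from the mean of the own group, over all 6 libraries, r was 0.897 with CsBBX7 and 0.886 with CsBBX12.

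**Figure D4:**
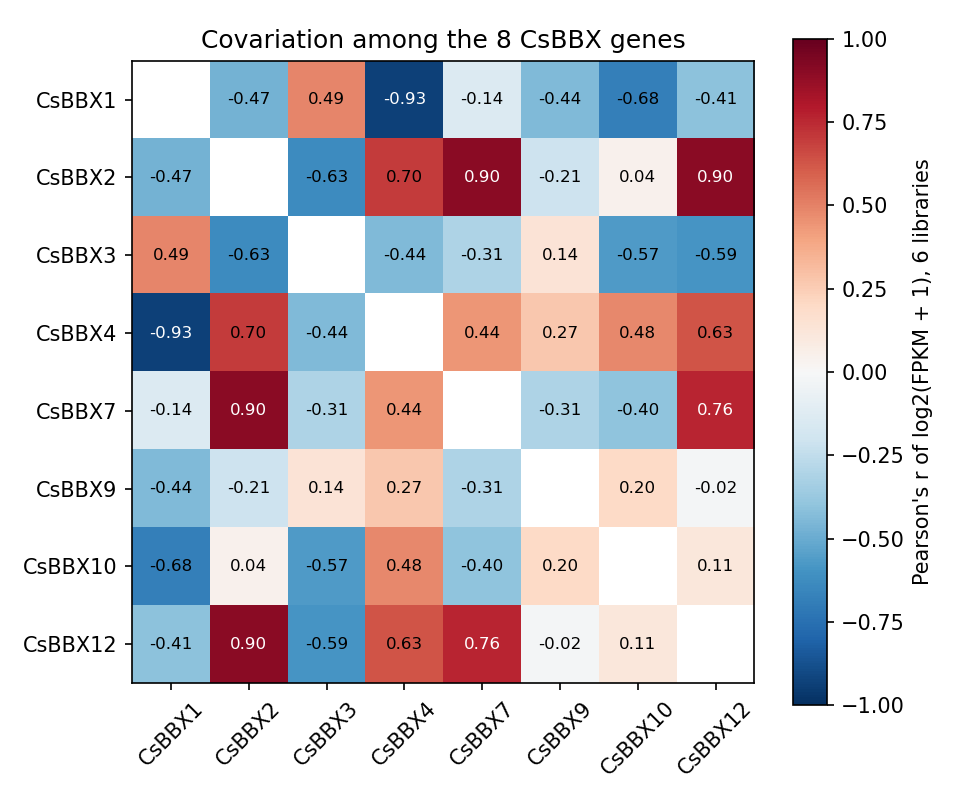
Pearson r of log2(FPKM + 1) over 6 libraries for every pair of the 8 CsBBX genes, printed in each square on a colour scale of -1 (blue) to 1 (red). CsBBX1 with CsBBX4 at -0.93 and CsBBX2 with CsBBX7 and CsBBX12 at 0.90 are the extremes.

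Genes of closely related proteins were also set side by side. The closest relatives among the 8, CsBBX2 and CsBBX10, had an r of 0.04. Their ratio, CsBBX2 over CsBBX10, was 3.79, 1.87 and 2.62 in T, against 2.67, 0.422 and 0.887 in CK. CsBBX10 was thus the higher of the pair in CK replicates 2 and 3 only. CsBBX3 and CsBBX12, with 47.5% identity, had an r of -0.59, and CsBBX12 was above CsBBX3 in 6 of 6 libraries, by 1.26 to 8.64 times.

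Relatives of CsBBX1 and CsBBX4 lie among the genes whose groups did not overlap. CsBBX4 shares 56.8% of the residues of the shorter protein with CsBBX14. The ratio of CsBBX4 over CsBBX14 was 0.708, 0.411 and 2.24 in T, against 5.14, 1.36 and 1.52 in CK, and overlapped between the groups. CsBBX1 shares 40.9% with CsBBX13, and the ratio of CsBBX13 over CsBBX1 was 3.07, 2.51 and 11.4 in T, against 8.74, 13.1 and 15.9 in CK. CsBBX13 was the higher of this pair in 6 of 6 libraries.

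**Figure D5:**
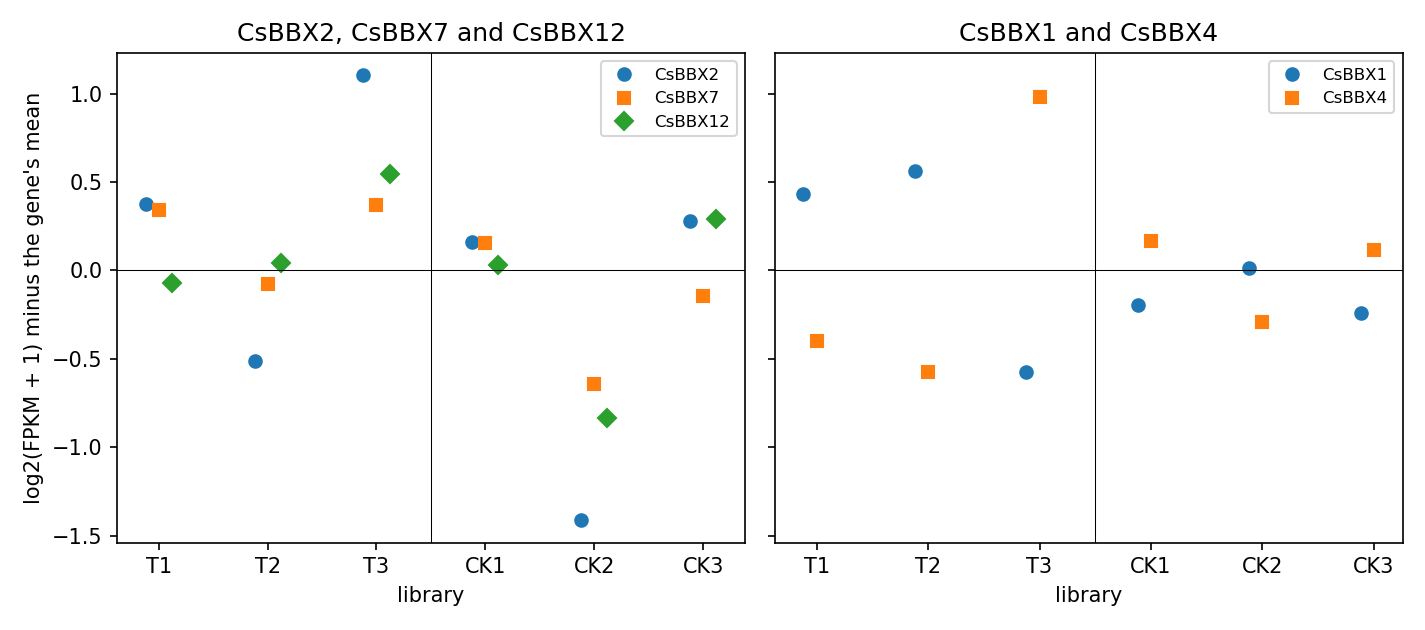
Log2(FPKM + 1) minus the mean of the gene over 6 libraries, for CsBBX2, CsBBX7 and CsBBX12 (left panel) and CsBBX1 and CsBBX4 (right panel), with T libraries left of CK libraries. CsBBX2, CsBBX7 and CsBBX12 are all highest in T replicate 3 and lowest in CK replicate 2, and CsBBX1 and CsBBX4 lie on opposite sides of their means in 6 of 6 libraries.

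Genes of the processes BBX proteins are known for were counted through 10 lists taken by GO and KEGG identifiers, on light responses, photomorphogenesis, the circadian clock, flowering and flavonoids. Together they held 583 tested genes, CsBBX4 and CsBBX10 among them. The criterion of the study was met by 26, or 4.46%, against 2.36% of all tested genes. Of the 26, 14 were higher and 12 lower in T, against 1.27% higher and 1.08% lower over all tested genes. The count turned on single libraries. Without CK replicate 2 it was 10, beside 257 of the 16421 tested genes, and no set test was run. At an adjusted p under 0.05 limma called 0 of the 583, beside 0.00609% of all tested genes, where the smallest adjusted p was 0.396. Single lists ranged between 2.86% for flavonoid biosynthesis, with 1 of 35 genes, and 11.1% for far red light, with 5 of 45.

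Among the genes past the criterion, Cs_ont_9g025540, annotated as a ubiquitin protein ligase and held by the KEGG clock pathway, averaged 3.84 ± 2.06 FPKM in T and 9.27 ± 3.18 FPKM in CK (SD, n = 3 each), with a log2 fold change of -1.12 and a limma adjusted p of 0.926. Cs_ont_9g012730, with an auxin efflux annotation and held by the photomorphogenesis list, had 0.115, 0.280 and 0.719 FPKM in T, against 1.43, 3.43 and 2.22 FPKM in CK, with a limma adjusted p of 0.743. Its T values all lay under 1 FPKM, so it passed the filter only through CK, where it is high, and nothing is read from its difference. Cs_ont_9g006400, held by the lists for blue, red and far red light, averaged 10.5 ± 5.57 FPKM in T and 1.45 ± 0.874 FPKM in CK, with a limma adjusted p of 0.598. In the KEGG clock pathway 1 of 32 tested genes met the criterion, and in photomorphogenesis, the list that holds CsBBX4, 2 of 37 did, both lower in T. Those 2 were Cs_ont_9g025540 and Cs_ont_9g012730, the latter tested only through its CK values.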

How the data were processed

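Leaf mRNA was sequenced in 6 libraries. The authors aligned reads with HISAT2 and counted them per gene with HTSeq, as the submitters' processing notes and the methods name, and deposited FPKM values. The study names release v3.0 of the sweet orange genome, though not in its alignment step. Tool versions were not given in the sources used here. Deposited columns of the authors' own comparison (fold change, p-value and call) were not used. T and CK were compared in limma 3.58.1 (R 4.3.3) on log2(FPKM + 1), two-sided, over genes with at least 1 FPKM in at least 3 libraries, with Benjamini-Hochberg adjustment. Reads were recovered from FPKM steps within a tolerance of 0.0001 reads and make up 99.55% to 99.59% of each library; precision is limited by 3 libraries per group, and p-values measure the spread between them. Protein features were computed from the protein sequences listed by the study with Biopython 1.88 (BLOSUM alignment, gap penalties 11 and 1). Named genes were the CsBBX genes, actin, the gene most like each of the 8, and up to 4 genes of each light or clock list by fold change, of which a few are printed. Alternatives were a pseudocount of 0.1, a minimum of 5 FPKM or none, a replicate block, median-ratio scaling, voom on recovered reads and leaving out each library. The genes and lists were chosen with earlier results of these data known. The limma script was tested on simulated data.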

Additional observations from a re-analysis of the deposited data

How the results depend on the processing

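The fit called 1 of 16421 genes at an adjusted p under 0.05. It called 0 without a filter, 0 with a replicate block and 0 with voom on recovered reads, where 1045, 1079 and 734 genes had an unadjusted p under 0.05, and 0 to 2 when a library was left out. The criterion of the study was met by 387 genes, by 241 to 744 when a library was left out and by 470 with the replicate block. Of the 8 CsBBX genes 0 met it, and 0 to 1 without a library (CsBBX10 without CK replicate 1). An unadjusted p under 0.05 was reached by 2 of the 8 with the replicate block, beside 6.57% of tested genes, by 1 without T replicate 3, beside 7.61%, and by 1 without CK replicate 1, beside 8.10%, against 0. The number of the 8 whose groups did not overlap was 0, and 0 to 3 without a library. The 26 light and clock genes stood beside 387 of all tested genes. They became 10 without CK replicate 2, beside 257 of all tested genes. Without CK replicate 1 they became 42, beside 744, and without T replicate 1 they became 12, beside 241. With a minimum of 5 FPKM, 137 genes met the criterion upward, against 209, and CsBBX1 and CsBBX3 dropped out. Without the 2 libraries farthest from the median of the first gene of a pair, 8 pairs of the 8 CsBBX genes had an r of at least 0.8 in size, against 3. The libraries left out differ between pairs, and a large r arises more readily from fewer libraries. The share over all pairs of tested genes was not computed in this setting, so nothing is read from the rise. All 94 alternative log2 fold changes of the 8 genes lay within 1 SD of the value given, and 84 kept its sign. The SE printed with the fold changes is a narrower margin. Without T replicate 3, CsBBX1 moved from 0.28 (SE 0.34) to 0.64 and CsBBX4 from 0.00 (SE 0.43) to -0.48, each by more than its SE. CsBBX4 took the other sign in 8 and CsBBX3 in 2, with ranges of -0.48 to 0.29 and -0.14 to 0.44. CsBBX10 ranged between -1.14 and -0.31, and CsBBX2 between 0.10 and 1.06. The replicate numbers were not taken as pairs in the main fit. Same-numbered libraries had correlations of 0.28, 0.21 and -0.04 in their deviations, and differently numbered ones -0.40 to 0.23, which does not settle the question. With the replicate block the SE of the log2 fold change was 0.20 for CsBBX2 and 0.22 for CsBBX10, against 0.58 and 0.50. For CsBBX9 it rose from 0.20 to 0.23. Median-ratio scaling moved the median log2 fold change by -0.003. The lowest count behind a value of the 8 genes was 73 reads, for CsBBX1 in T replicate 3.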

Other observations

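Each of the 8 CsBBX genes was set against the 12533 tested genes outside the family with a mean of at least 5 FPKM, by Pearson r of log2(FPKM + 1) over the 6 libraries, as a description. Between 7 genes, for CsBBX9, and 130 genes, for CsBBX10, had an r of at least 0.95. How often other genes reach such counts was not computed. Each gene named below has the highest r of the 12533 over the same 6 values. A high r and shared high or low libraries thus follow from the choice, and no link between the genes is read from them. The gene most like CsBBX7 was Cs_ont_7g003250, annotated as a DNA-binding transcription factor, with an r of 0.9996. It had 381, 223 and 391 FPKM in T, against 301, 109 and 212 FPKM in CK. The gene most like CsBBX2 was Cs_ont_4g028440, annotated with arabinose transport, at an r of 0.997. Cs_ont_1g029330, annotated with small GTPase binding, was most like CsBBX12 at 0.998, and Cs_ont_6g020890, annotated as a polynucleotide adenylyltransferase, most like CsBBX10 at 0.994. CsBBX3 was most like Cs_ont_5g003720, a DNA-binding transcription factor by annotation, at 0.986, and CsBBX9 most like Cs_ont_5g037880, annotated as a serine-type endopeptidase, at 0.973. The genes most like CsBBX1 and CsBBX4, Cs_ont_4g011960 at 0.995 and Cs_ont_8g008930 at 0.994, carry no annotation in the table.

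Of the 40 pairs of the 8 genes with the other tested CsBBX genes, 4 had an r of at least 0.8 in size, while 8.67% of all pairs of tested genes reached this. CsBBX10 was in 3 of them, with CsBBX13 at 0.83, CsBBX11 at 0.82 and CsBBX5 at 0.81, and CsBBX3 with CsBBX5 had an r of -0.81. No pair passed adjustment over the 40 pairs by the exact permutation test, where the smallest adjusted p was 0.6. With 720 pairings of 6 libraries, a lone pair among the 40 could not pass however strong its r, so no lack of covariation is read from this. Actin (Cs_ont_3g025170), the reference gene of the RT-qPCR in the study, had 8.37, 8.69 and 9.04 FPKM in T, against 9.15, 8.78 and 13.3 FPKM in CK, with CK replicate 3 the highest library.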
